A study of Homo sapiens with 20 samples.

Results

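Summits of RNA polymerase II (POL2) and of the transcription factor MYC were described at the promoters of 43 cell cycle and DNA replication genes, out of 19962 protein-coding genes of GENCODE release 44 on chromosomes 1 to 22 and X. The genes were listed by name from their known roles, and all 43 were found in the annotation. They comprise 11 genes of G1 and the entry into S phase (the G1 genes), 14 genes that license, carry out or guard DNA synthesis (the S genes) and 18 genes of G2 and mitosis (the mitotic genes). The libraries came from chromatin immunoprecipitation followed by sequencing (ChIP-seq) in PC-3, an established human prostate cancer cell line. Wild-type (WT) PC-3 cells were compared with PC-3 cells in which the kinase gene SLK was knocked out (SLK-KO), with 3 MYC and 3 POL2 libraries of each genotype. The study set up this comparison to ask how SLK bears on MYC, to judge from its title. The labels call the SLK-KO cells PSD10 without saying whether PSD10 is a single clone, so loss of SLK and other differences between the cell lines cannot be told apart. The replicates are stated to be biological, and the cultures were grown near confluence without any stated synchronization or sorting by cell cycle phase.

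The cell cycle is driven by cyclin-dependent kinases (CDKs), which are switched on by cyclins that are made and destroyed in turn. D-type cyclins with CDK4 or CDK6 phosphorylate the retinoblastoma protein, which frees E2F factors to activate genes of DNA replication. Later genes, which peak in G2 and mitosis, are controlled through the MuvB complex at CHR elements together with NF-Y at CCAAT boxes, and FOXM1 and MYBL2 join MuvB there. MYC binds DNA with its partner MAX at E-boxes, best at CACGTG, and D-type cyclins, CDK4 and E2F genes are among its textbook targets. RNA polymerase II gathers just downstream of many active start sites, so a POL2 summit at a promoter marks engaged or paused polymerase and not the amount of RNA made.

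Each library was available as a list of peak summits, which are single-base positions with a score from the authors' peak caller. The POL2 lists held 17126, 5047 and 9925 summits in WT replicates 1 to 3 and 19017, 15436 and 16298 in SLK-KO. The MYC lists held 365, 201 and 267 summits in WT and 1218, 1420 and 988 in SLK-KO. No read counts come with the lists, so the depth of each library is unknown. Longer lists therefore cannot be told apart from deeper sequencing or lower background. The replicates are compared as deposited, and WT replicate 2 stands apart with the shortest list of either antibody. The epithelial genes KRT8, KRT18 and KRT19 had a POL2 promoter summit in all 6 libraries, while the blood genes PTPRC and CD3E and the prostate genes KLK3 and KLK2 had it in none. TMPRSS2 had it in all 6, EPCAM in 1 WT and 3 SLK-KO libraries, and CDH1 and the endothelial gene PECAM1 in 1 WT library each. COL1A1, a fibroblast collagen gene, had it in 2 libraries of each genotype. Whether these differences bear on the results that follow was not tested. SLK itself had a POL2 promoter summit in 2 WT and 3 SLK-KO libraries, which cannot show whether its product is lost.

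E2F motifs were most frequent in the S promoters and CHR motifs in the mitotic promoters. RefSeq promoter sequences (GRCh38.p14, 250 bases before to 50 after the start site) were matched for 35 of the 43 genes. In 28 of them the sequence held the canonical GENCODE start. The sequences of CCND3, PCNA, CHEK1, CDK1, CDC25B, CDC25C and AURKB did not hold it. For these genes the motif counts can therefore describe another promoter than the main one. CCND1, CCNE2, CDK2, MCM4, MCM5, AURKA, WEE1 and FOXM1 were not matched. An E2F motif (TTTGGCGC, TTTCCCGC, TTTCGCGC or TTTGCCGC, either strand) lay in 8 of 12 S promoters, 4 of 8 G1 promoters and 1 of 15 mitotic promoters, against 4.50% of 15316 coding promoters. A CHR motif (TTTGAA or TTCGAA, either strand) lay in 9 of 15 mitotic promoters but in 1 of 12 S and 1 of 8 G1 promoters, against 13.4% of coding promoters. The CCAAT box, on either strand, lay in 11 of 15 mitotic, 9 of 12 S and 3 of 8 G1 promoters, against 36.6%. CHR and CCAAT stood together in 8 of the 15 mitotic promoters, against 5.62% of coding promoters. The CACGTG E-box, which reads the same on both strands, lay in 2 of 8 G1, 2 of 12 S and 3 of 15 mitotic promoters, against 8.88%. A promoter from each class is shown, for genes to which the results return, CDK4 for its E-boxes, MCM7 for its E2F motifs and CDC20 for its CHR and CCAAT motifs. Each is given as the 250 bases before the start site on the gene's strand, with matches to any of the 4 motifs in capitals.
CDK4, chr12:57752311-57752560, minus strand: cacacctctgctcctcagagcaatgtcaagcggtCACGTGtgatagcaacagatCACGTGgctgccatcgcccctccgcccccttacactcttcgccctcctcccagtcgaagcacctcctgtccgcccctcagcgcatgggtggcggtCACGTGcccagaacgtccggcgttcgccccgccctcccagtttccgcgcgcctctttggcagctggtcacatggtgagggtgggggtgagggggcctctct
MCM7, chr7:100101398-100101647, minus strand: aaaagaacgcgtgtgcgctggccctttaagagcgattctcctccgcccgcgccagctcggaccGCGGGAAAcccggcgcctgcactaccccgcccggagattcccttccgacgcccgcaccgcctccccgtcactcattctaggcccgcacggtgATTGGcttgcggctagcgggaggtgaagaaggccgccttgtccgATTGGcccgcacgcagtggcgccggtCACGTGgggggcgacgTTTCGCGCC
CDC20, chr1:43358731-43358980, plus strand: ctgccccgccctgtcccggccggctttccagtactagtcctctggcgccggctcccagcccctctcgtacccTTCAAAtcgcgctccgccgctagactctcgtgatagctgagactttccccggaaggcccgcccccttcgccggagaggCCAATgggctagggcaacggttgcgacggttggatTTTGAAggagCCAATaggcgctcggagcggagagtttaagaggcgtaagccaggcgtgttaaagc
CDK4, a G1 kinase, had 3 E-boxes that began 216, 196 and 101 bases before the start and none of the other motifs. MCM7, a subunit of the replicative helicase, had an E-box 25 bases before the start, E2F motifs 187 and 9 bases before it, and 3 CCAAT boxes, the last of which runs across the start. CDC20, which activates the anaphase-promoting complex, had CHR motifs 178 and 65 bases before the start and CCAAT boxes 100 and 55 bases before it. PLK1, a mitotic kinase, held an E-box (198 bases before the start), a CHR motif (29 bases) and a CCAAT box (73 bases). MCM6, another helicase subunit, held 4 E2F matches that overlap in pairs.

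POL2 sat at the promoters of most of these genes, and at more of them in the SLK-KO libraries than in the shorter WT lists. A gene was counted in a library when a summit lay within 1 kb of any of its annotated transcript starts. The number of the 43 genes with a POL2 summit was 36, 14 and 26 in WT replicates 1 to 3 and 39, 37 and 36 in SLK-KO, or 25.3 ± 11.0 against 37.3 ± 1.53 (mean ± SD, n = 3 each). WT replicate 1 and SLK-KO replicate 3 had the same count, so the genotypes overlapped, and WT replicate 2, the shortest list, was the lowest by far. Over all coding genes the share was 34.0% ± 14.2 in WT and 47.2% ± 1.92 in SLK-KO, and over the 43 genes it was 58.9% ± 25.6 and 86.8% ± 3.55. When each list was reduced to its 5047 best-scored summits, the counts were 18, 14 and 22 in WT and 16, 24 and 17 in SLK-KO, which overlap fully. In at least 1 library, 39 of the 43 genes had a POL2 summit, against 53.9% of coding genes. In all 6 libraries 14 genes had it, against 18.1% of coding genes, and in the 5 libraries other than WT replicate 2 the count was 25, against 32.9%.

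**Figure D1:**
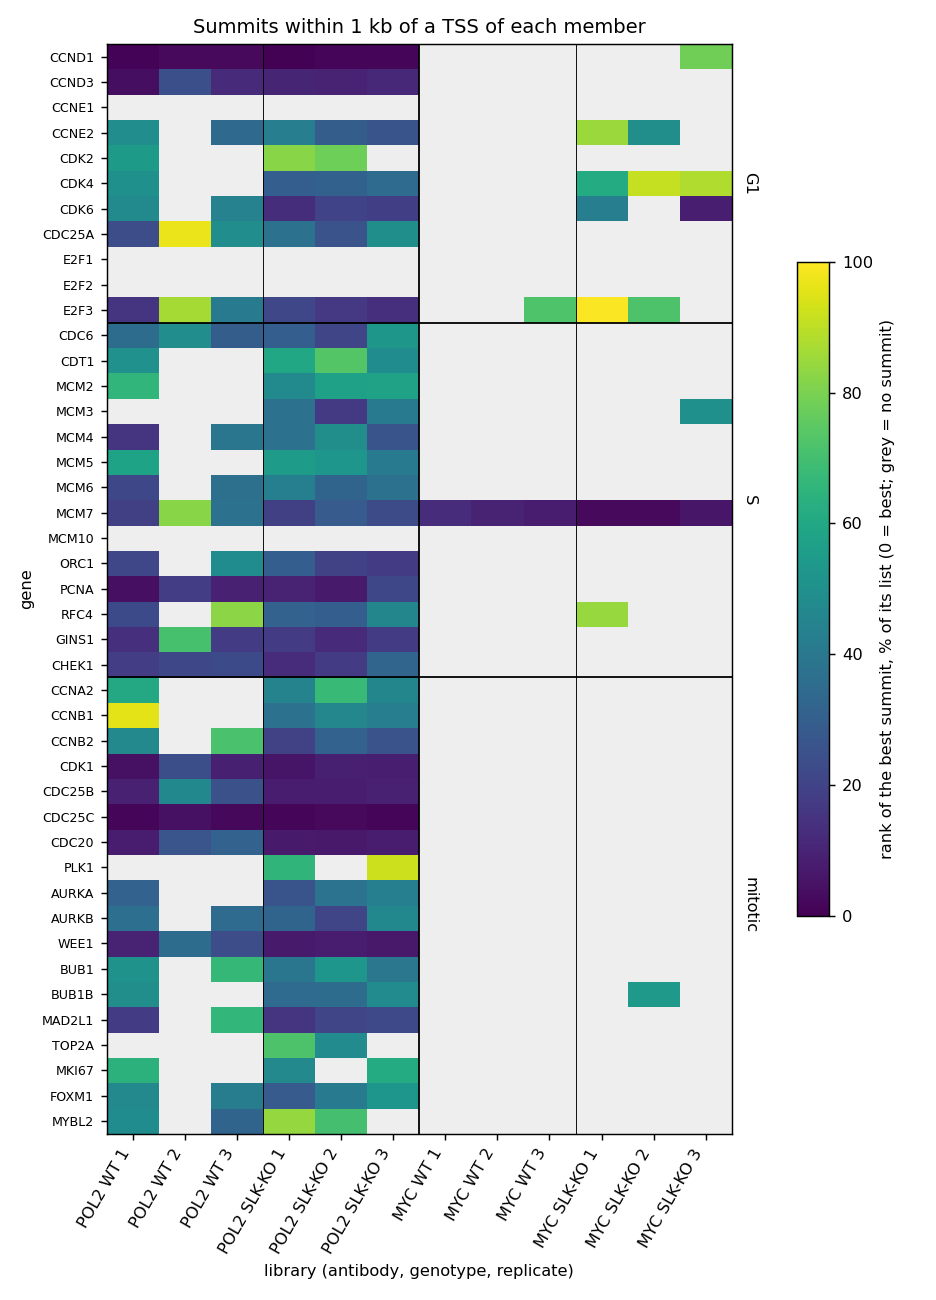
Presence and rank of the best summit within 1 kb of a start site for each of the 43 genes (rows, by class) in the 12 libraries (columns, by antibody, genotype and replicate). Colour gives the rank as a percent of the library's list (0 is the best-scored) and grey means no summit. POL2 fills most rows apart from WT replicate 2, and MYC marks 9 rows, with MCM7 the row filled in all 6 MYC libraries.

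By class, the S and mitotic genes had POL2 at a larger share of promoters than the G1 genes in the SLK-KO libraries. Of the 14 S genes, 12, 5 and 9 had a summit in WT and 13 in each SLK-KO library. Of the 18 mitotic genes, 16, 5 and 11 had it in WT and 18, 16 and 16 in SLK-KO. Of the 11 G1 genes, 8, 4 and 6 had it in WT and 8, 8 and 7 in SLK-KO. In SLK-KO the shares were 69.7% ± 5.25 for G1, 92.9% in each library for S and 92.6% ± 6.42 for mitotic genes. In WT they were 54.5% ± 18.2, 61.9% ± 25.1 and 59.3% ± 30.6, so the spread between WT libraries was larger than any difference between classes. Over the 6 libraries the G1 share was 13.8 ± 13.2 percentage points below the mitotic share. With lists of 5047 summits it was 6.57 ± 8.98 points above it, so the order of the classes depended on list length.

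**Figure D2:**
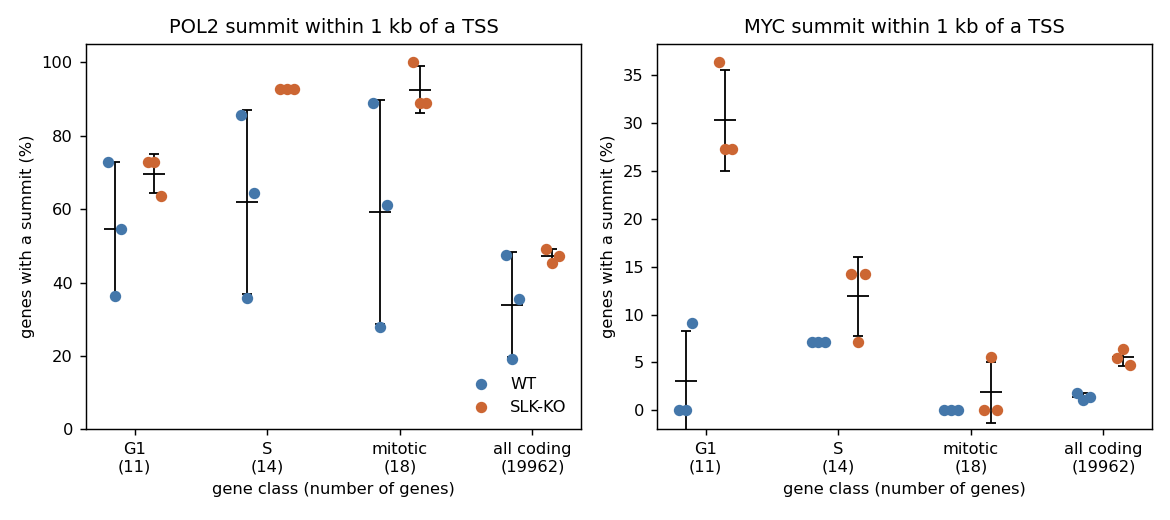
Percent of genes with a POL2 (left) or MYC (right) summit within 1 kb of a start site, for the 11 G1, 14 S and 18 mitotic genes and all 19962 coding genes. Points are single libraries, WT and SLK-KO, dashes are means and error bars are SD (n = 3), cut at the lower edge of the MYC panel. In the MYC panel the 3 SLK-KO points of the G1 genes lie between 27.3% and 36.4%, above the WT points at 0% to 9.09%.

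Among the cyclins and kinases of G1, CCND1 (cyclin D1) stood nearest the top of the POL2 order. Levels of different lists are not comparable, so genes were ordered within each library among the 3614 coding genes with a POL2 promoter summit in all 6 libraries, with rank 1 for the best-scored summit. CCND1 ranked 169, 111 and 230 in WT and 104, 195 and 240 in SLK-KO, with overlapping ranges. CCND3 (cyclin D3) ranked 647, 1189 and 1167 in WT and 1807, 1384 and 1716 in SLK-KO. Every SLK-KO rank was below every WT rank in the order, with means of 1001 ± 307 and 1636 ± 223. However, the best CCND3 summits lay 31 to 41 bp from the start of TAF8, a gene of a general transcription factor subunit, at a distal annotated CCND3 start. At the main CCND3 start a POL2 summit was listed in WT replicate 1 alone, at rank 10889 of that list. The CCND3 values therefore cannot be told apart from those of TAF8.

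The kinase partners of the D-type cyclins had POL2 in fewer lists. CDK6 had a summit in 5 POL2 libraries, at rank 8217 and 4395 of the lists of WT replicates 1 and 3 and at rank 2513, 3109 and 3046 in SLK-KO. CDK4 had a summit in WT replicate 1 at rank 8611 and in all SLK-KO libraries at rank 5679, 4811 and 5669. These ranks refer to lists of different lengths, so neither a change nor its absence can be read from them. The best CDK6 summits also lay at different places. They were 2743 bp downstream of the canonical start in WT replicate 3 and 966 and 961 bp in SLK-KO replicates 2 and 3. In the other listed libraries they lay nearer to that start. CDK2, which acts with cyclin E, had a summit in WT replicate 1 at rank 9299 and in SLK-KO replicates 1 and 2 at ranks 15663 and 12013. The CDK2 start lies 94 bp from that of PMEL, and the summit of SLK-KO replicate 1 was nearer to PMEL (55 bp). These summits cannot be assigned to CDK2 alone. CDC25A, the phosphatase that activates CDK2, was in the common set at ranks 3037, 3567 and 3196 in WT and 3448, 2771 and 3499 in SLK-KO, in the lower part of the order in every library.

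The cyclin E and E2F genes split between present and absent. CCNE2 (cyclin E2) had POL2 in WT replicates 1 and 3 at ranks 8424 and 3387 of their lists and in SLK-KO at ranks 8107, 4561 and 4236. E2F3, an activator E2F, had it in all 6, at ranks 2294, 3376 and 2959 of the common set in WT and 2862, 2133 and 1964 in SLK-KO, which overlap. CCNE1 (cyclin E1), E2F1 and E2F2 had no POL2 summit within 1 kb of a start in any library. Their nearest POL2 summits in any list were 96624, 11778 and 104157 bp away. In these lists a missing summit means that none was called at an unknown depth, not that the gene is silent.

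The S genes that load and form the helicase were present in most SLK-KO lists. CDC6, which loads the helicase onto origins, was in all 6 libraries at ranks 3454, 2225 and 2424 of the common set in WT and 3280, 2473 and 3531 in SLK-KO. CDT1, its partner in loading, was listed in WT replicate 1 at rank 8664 and in SLK-KO at ranks 11312, 11307 and 7949. ORC1, a subunit of the origin recognition complex, was listed in 2 WT and 3 SLK-KO libraries, but each best summit lay 4 to 32 bp from the start of PRPF38A, a splicing factor gene that shares the promoter. Of the helicase subunits, MCM7 was in all 6 libraries, MCM4 and MCM6 in 2 WT and 3 SLK-KO libraries, and MCM2 and MCM5 in 1 WT and 3 SLK-KO libraries. The list ranks of MCM2, MCM4, MCM5 and MCM6 ran from 2575 (MCM4, WT replicate 1) to 11298 (MCM2, WT replicate 1). The MCM2 start lies 144 bp from that of TPRA1, and the MCM2 summit of SLK-KO replicate 3 lay 15 bp from the TPRA1 start. MCM7 ranked 2670, 3275 and 2819 in WT and 2689, 2934 and 2707 in SLK-KO, with overlapping ranges and the narrowest SLK-KO spread of the S genes in the common set. MCM10, which helps to activate the helicase, had no POL2 summit at its starts, and the nearest lay 61320 bp away.

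MCM3, the remaining helicase subunit, was the member with POL2 in all 3 SLK-KO and no WT libraries. Its summits lay 9, 84 and 49 bp from a start, at ranks 7124, 2598 and 6654 of the SLK-KO lists. This pattern was met by 1 of 43 genes against 1.55% of coding genes, and the reverse pattern by no member and by 2 of 19962 genes. With about the same share as the background, the count is not a result about the group.

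Among the replication fork genes, PCNA, the sliding clamp of the polymerases, had the widest gap between genotypes. PCNA ranked 728, 899 and 899 of the common set in WT and 1746, 1053 and 2638 in SLK-KO. All WT ranks were nearer the top than all SLK-KO ranks (842 ± 98.7 against 1812 ± 795), though SLK-KO replicate 2 lay close to WT. The difference of 970 ranks was 556.5 without SLK-KO replicate 3 and 1351 without SLK-KO replicate 2. GINS1, a subunit of the GINS complex of the active helicase, ranked 2152, 2961 and 1670 in WT and 2543, 1709 and 2316 in SLK-KO. In SLK-KO its best summit was at a distal start beside ABHD12, whereas its own main start held a summit in all 6 libraries, 66 to 136 bp from it. RFC4, part of the loader that places PCNA on DNA, was listed in WT replicates 1 and 3 at ranks 3830 and 8217 and in SLK-KO at ranks 6007, 4587 and 7460. CHEK1, the checkpoint kinase that responds to stalled forks, ranked 2628, 1067 and 1992 in WT and 2090, 2220 and 3205 in SLK-KO, with overlapping ranges. The CHEK1 summits lay 649 to 888 bp downstream of the canonical start and 22 to 124 bp from an annotated one. They were also 11 to 138 bp from the start of a long non-coding RNA gene and cannot be assigned to CHEK1 alone.

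The kinases and phosphatases that gate mitotic entry included the mitotic genes that ranked nearest the top. CDC25C, a phosphatase that activates CDK1, ranked 187, 201 and 209 in WT and 230, 362 and 208 in SLK-KO. Those summits lay 18 to 28 bp from a distal CDC25C start beside FAM53C, whose start is 30 to 40 bp away, so they cannot be assigned to CDC25C alone. At the main CDC25C start a POL2 summit was listed in WT replicate 1 and in all 3 SLK-KO libraries. CDK1, the mitotic kinase itself, ranked 813, 1178 and 868 in WT and 1072, 1254 and 1288 in SLK-KO, with ranges that overlap by a single WT library.

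WEE1 and CDC25B were nearer the top of the POL2 order in every SLK-KO library than in any WT library. WEE1, the kinase that holds CDK1 inactive, ranked 1622, 1680 and 2070 in WT and 1305, 1118 and 1085 in SLK-KO (1791 ± 244 against 1169 ± 119). CDC25B, a phosphatase that opposes WEE1, ranked 1572, 2127 and 2137 in WT and 1380, 1148 and 1399 in SLK-KO (1945 ± 323 against 1309 ± 140). The enzymes act in opposite ways on CDK1, and their promoters shifted to the same side of the order, by ranks and not by a test that passed. CDC20 ranked 1394, 1276 and 2530 in WT and 1327, 1022 and 1261 in SLK-KO. WT replicate 2 was inside the SLK-KO range, so the CDC20 genotypes overlapped.

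**Figure D3:**
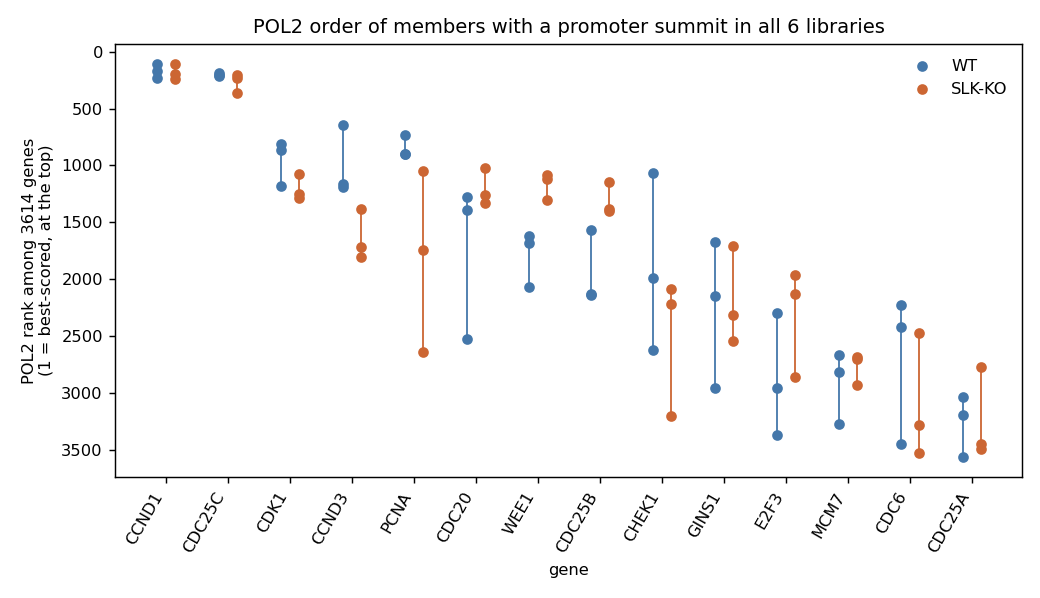
Rank of the POL2 promoter summit among 3614 coding genes (vertical axis, rank 1 at the top) for the 14 genes with a POL2 summit in all 6 libraries. Points are single libraries, 3 WT and 3 SLK-KO per gene. CCND1 and CDC25C lie at the top in all libraries, WEE1 and CDC25B have their SLK-KO points above their WT points, and PCNA and CCND3 have them below.

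The count of such shifts was that of coding genes at large. Ranges did not overlap with SLK-KO nearer the top for 2 of the 14 genes, against 14.9% of the 3614 genes, and with SLK-KO farther down for 2 of 14 (PCNA and CCND3), also against 14.9%. An exact two-sided permutation of 3 against 3 libraries has 20 relabellings and cannot give a p below 0.1, which WEE1, CDC25B, PCNA and CCND3 reached. After Benjamini-Hochberg adjustment over the 3614 genes the smallest adjusted p of the exact permutation test was 0.336, and no gene passed 0.05. The median of the genes' mean ranks was 1843 in WT and 1724 in SLK-KO for the 14 genes, beside 1912 and 1838 for all 3614. For the 5 mitotic genes of the common set it was 1733 and 1203, for the 5 S genes 2261 and 2505, and for the 4 G1 genes 1939 and 1978.

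The cyclins and kinases of mitosis were mostly listed in SLK-KO. CCNB2 (cyclin B2), AURKB, the kinase of the chromosomal passenger complex, and FOXM1, an activator of mitotic genes, were listed in 2 WT and 3 SLK-KO libraries. For FOXM1 each of the 5 best summits lay 29 to 79 bp from the start of RHNO1, a checkpoint gene on the other strand. CCNA2 (cyclin A2), CCNB1 (cyclin B1) and AURKA, the centrosome kinase, were listed in 1 WT and 3 SLK-KO libraries. CCNB1 was near the end of the list of WT replicate 1 at rank 16393 of 17126, and at ranks 7172, 7123 and 6966 in SLK-KO. CCNA2 was at rank 10331 in WT replicate 1 and 8526, 10456 and 7469 in SLK-KO. AURKA was higher up, at rank 5371 in WT replicate 1 and 4962, 5907 and 7029 in SLK-KO. The AURKA start lies 156 bp from that of CSTF1. MYBL2, the MYB factor of MuvB, was listed in 2 libraries of each genotype, at ranks 8307 and 3201 in WT and 16040 and 10856 in SLK-KO. PLK1 had no WT summit and was listed in SLK-KO replicates 1 and 3 at ranks 12416 and 15079, in the lower part of those lists.

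The spindle checkpoint and chromosome genes were listed in more SLK-KO than WT libraries, which is the direction of all coding genes (34.0% and 47.2%) and of the longer SLK-KO lists. With lists of 5047 summits the counts over all 18 mitotic genes were 6, 5 and 8 in WT and 8, 8 and 7 in SLK-KO, which overlap. BUB1, a checkpoint kinase, and MAD2L1, which holds CDC20 in check, were listed in 2 WT and 3 SLK-KO libraries. MAD2L1 stood at ranks 3013 and 6583 in WT and 2932, 3248 and 3577 in SLK-KO, and BUB1 at ranks 8718 and 6617 in WT and 7430, 8105 and 6450 in SLK-KO. The BUB1 summits lay 1 to 44 bp from the start of a long non-coding RNA gene. Those of MAD2L1 lay 16 to 55 bp from the start of MAD2L1-DT, also such a gene, except in SLK-KO replicate 2 (113 bp). These summits cannot be assigned to BUB1 or MAD2L1 alone. BUB1B (BubR1), another part of the checkpoint, was listed in WT replicate 1 at rank 8433 and in SLK-KO at ranks 6678, 5447 and 7852. TOP2A, the topoisomerase that untangles sister chromatids, was listed in SLK-KO replicates 1 and 2 alone, at ranks 13704 and 7473. MKI67, the proliferation marker Ki-67, was listed in WT replicate 1 and SLK-KO replicates 1 and 3, with the summit 84 bp from a start in all 3. WT replicate 1 had the longest WT list, and all 10 genes with POL2 in a single WT library had it there.

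Where POL2 was listed, it mostly sat close to an annotated start. Distances were taken to the nearest annotated start, and only summits within 1 kb of one were counted. For CCND3 and CDC25C, and for GINS1 and RFC4 in some libraries, that was a distal start far from the canonical one. For E2F3 and WEE1 in WT replicate 2 and CDK6 in WT replicate 3 it was an internal start. Those 3 summits lay 1682, 1717 and 2743 bp from the canonical start. The median distance of the 188 best summits over 39 genes was 53 bp, 68.1% lay within 100 bp and 58.0% downstream of the nearest start. For all coding genes these were 57 bp, 63.8% and 58.2%. The median was 42 bp for G1, 81 bp for S and 40 bp for mitotic genes. When the canonical start of each gene alone was used, 11 members kept a POL2 summit in all 6 libraries, and CCND3, E2F3 and CDC25C were left with 1, 5 and 4 of their 6 libraries. Another coding gene started within 1 kb of the canonical start of 9 members (CCNE2, CDK2, MCM2, MCM4, MCM7, ORC1, CDC25C, AURKA and FOXM1). For 6 members a best POL2 summit was nearer to another coding gene in at least 1 library.

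MYC summits were found at few of these promoters, and at more of them in the longer SLK-KO lists. The number of the 43 genes with a MYC summit was 1, 1 and 2 in WT and 6, 5 and 5 in SLK-KO (1.33 ± 0.577 against 5.33 ± 0.577, n = 3 each), with no overlap. Over all coding genes the share was 1.83%, 1.04% and 1.40% in WT and 5.50%, 6.40% and 4.67% in SLK-KO. With every MYC list reduced to its 201 best-scored summits the counts were 1, 1 and 2 in both genotypes, so no difference was left at equal length. In at least 1 library 9 genes had a MYC summit, which is 20.9% of the 43 against 9.69% of coding genes. Among genes with a POL2 summit in at least 1 library it was 9 of 39, or 23.1%, against 17.7%. By class these were 5 of 11 G1 genes (CCND1, CCNE2, CDK4, CDK6 and E2F3), 3 of 14 S genes (MCM3, MCM7 and RFC4) and 1 of 18 mitotic genes (BUB1B).

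The G1 genes held most of the MYC summits that were listed in SLK-KO. Their number with a MYC summit was 0, 0 and 1 of 11 in WT and 4, 3 and 3 in SLK-KO. For the S genes it was 1 of 14 in each WT library and 2, 1 and 2 in SLK-KO, and for the mitotic genes 0 of 18 in all libraries but SLK-KO replicate 2, which had 1. Over the 6 libraries the G1 share was 15.7 ± 15.1 percentage points above the mitotic share. With lists of 201 summits the same difference was 3.03 ± 4.69 points.

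MCM7 was the member with a MYC summit in all 6 libraries, a pattern met by 99 of the 19962 coding genes. The MCM7 summits ranked 47, 20 and 20 in the WT lists and 30, 36 and 60 in the SLK-KO lists, so they were among the best-scored of every library. They lay 776, 825 and 816 bp downstream of the canonical start in WT and 777, 837 and 814 bp in SLK-KO. All were in intron 1 of the canonical transcript and within 61 bp of each other. Each also lay within 120 bp of an internal annotated start of MCM7, so the site is not far from every start. The best-scored POL2 summit of the same-numbered library lay upstream by 423, 320 and 1122 bp in WT and 502, 425 and 370 bp in SLK-KO, so MYC and POL2 peaked at different places in each library. The POL2 summit of WT replicate 3, at 1122 bp, lay 39 bp from the start of the neighbouring gene AP4M1 and cannot be assigned to MCM7 alone. The 101 bases around the summit of SLK-KO replicate 2 are shown as an example of the interval marked in every MYC library, with no capitals because it holds no CACGTG.
MCM7 intron 1, GRCh38 chr7:100100510-100100610, minus strand: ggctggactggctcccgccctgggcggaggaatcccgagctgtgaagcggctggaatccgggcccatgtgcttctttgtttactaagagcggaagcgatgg
No CACGTG lay within 500 bp of any of the 6 summits. A CATGTG, which differs from CACGTG by a single base, lay within 100 bp of each and is in the bases shown. CATGTG or its reverse complement CACATG lay that near to 13.8% of all promoter MYC summits. The 6 summits mark a single interval, so the match counts once. The E-box of the MCM7 promoter shown above lies upstream of the canonical start, over 500 bp away. 

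CDK4 was the member with a MYC summit in all 3 SLK-KO and no WT libraries, against 0.877% of coding genes. The CDK4 summits ranked 747, 1297 and 871 of lists of 1218, 1420 and 988, so they were in the lower part of each. They lay 82, 131 and 107 bp downstream of the start in the non-coding part of exon 1, and 108, 95 and 3 bp from the POL2 summit of the same-numbered library. The nearest of the E-boxes in the CDK4 promoter was centred 180.5, 229.5 and 205.5 bp from the summits. The longest WT list held 365 summits. With every MYC list reduced to its 201 best-scored summits, CDK4 was absent from the SLK-KO lists as well. Whether list length accounts for the absence of CDK4 from the full WT lists was not tested.

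CDK6 and E2F3 were each listed in more than 1 MYC library, and CDK6 lay on an E-box. CDK6 had MYC summits in SLK-KO replicates 1 and 3 at ranks 522 and 84, 34 and 59 bp downstream of the start, with the centre of a CACGTG 1.5 and 26.5 bp away. E2F3 had MYC summits in WT replicate 3 at rank 193 and in SLK-KO replicates 1 and 2 at ranks 1213 and 1025. Of these, the WT summit and that of SLK-KO replicate 2 lay in intron 1, 1557 and 1636 bp downstream of the canonical start and near an internal start. The summit of SLK-KO replicate 1 lay 491 bp upstream of the canonical start, so the 3 E2F3 summits do not mark 1 site. CCNE2 had MYC summits in SLK-KO replicates 1 and 2, 787 and 947 bp upstream of its start, which were nearer to the start of NDUFAF6, a mitochondrial complex I assembly gene.

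The remaining members with MYC had it in a single SLK-KO library. CCND1 had a summit 468 bp upstream of the start in SLK-KO replicate 3, at rank 773. RFC4 had it 431 bp upstream in SLK-KO replicate 1 at rank 1031, MCM3 141 bp downstream in coding exon 1 in SLK-KO replicate 3 at rank 495, and BUB1B 374 bp downstream in intron 1 in SLK-KO replicate 2 at rank 766. A summit listed once has no replicate check. Of the 20 MYC summits at members, 7 had a CACGTG within 100 bp (35.0%, from 6 genes), against 32.5% of all 3428 promoter MYC summits. All 7 were SLK-KO summits, for which the share over all promoters was 29.5% to 30.8% per library, and 39.3% to 44.3% in WT. However, the WT libraries held 1, 1 and 2 member summits, with the MCM7 site in each. The other WT summit, that of E2F3, had a CACGTG centred 100.5 bp away, just past the limit. It is the E-box counted for E2F3 in SLK-KO replicate 2, so the split by genotype rests on few summits and on the cutoff. The E-boxes of 5 of the 6 genes are shown, in 30 bases from GRCh38 with CACGTG in capitals. They are the sites nearest to the counted summits of those genes.
CDK6, chr7:92836526-92836555, minus strand: cgaggccgcggaCACGTGcggagagccgac
BUB1B, chr15:40161426-40161455, plus strand: gtggactgagggCACGTGcgaatcctgccg
E2F3, chr6:20403522-20403551, plus strand: tgacgtttcgcaCACGTGcgcgcaggacgc
RFC4, chr3:186806947-186806976, minus strand: agaagtaaaagcCACGTGtcctcaagaggg
CCND1, chr11:69640585-69640614, plus strand: tcttgcaatttaCACGTGttaatgaaaatg
The centre of the E-box was 1.5 to 26.5 bp from the CDK6 summits, 2.5 bp from that of BUB1B, 21.5 bp from that of E2F3 in SLK-KO replicate 2, 48.5 bp from that of RFC4 and 88.5 bp from that of CCND1. The sixth gene was CCNE2.

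**Figure D4:**
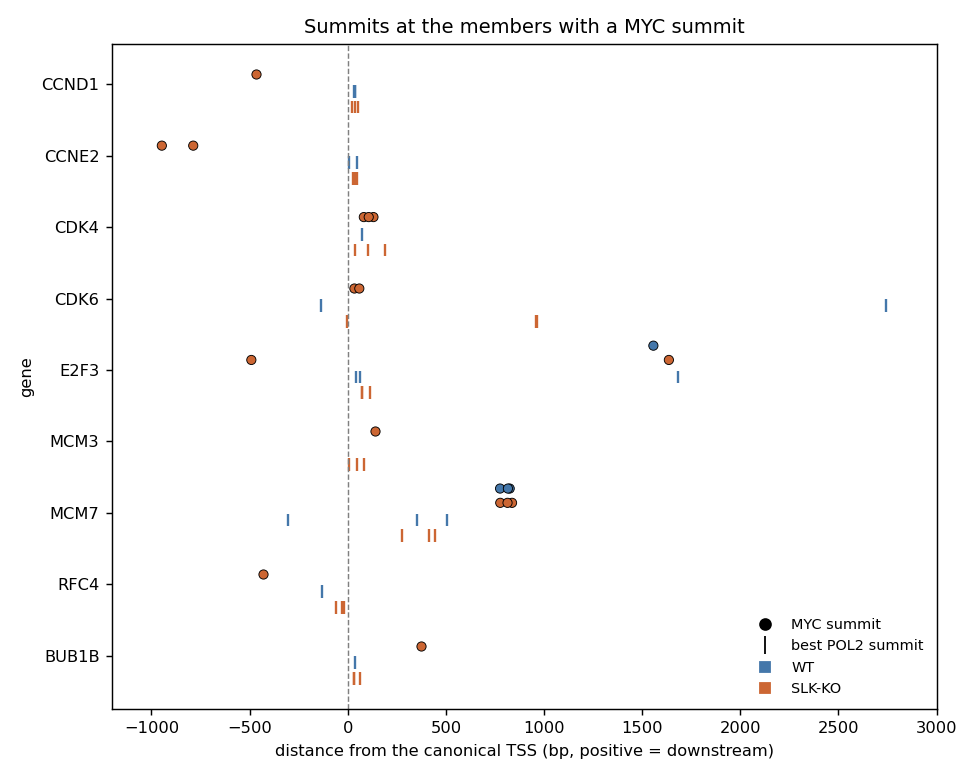
Position of MYC summits (circles) and of the best POL2 summit (ticks) relative to the canonical start site in bp, positive downstream, for the 9 genes with a MYC summit, with WT and SLK-KO libraries on separate lines. The RFC4 POL2 summit of WT replicate 1, 15250 bp downstream at a distal start, lies outside the axis. The 6 MCM7 circles cluster at 776 to 837 bp, and the 3 CDK4 circles at 82 to 131 bp are all SLK-KO.

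In a wider list of 73 other cell cycle genes, most promoters again had POL2 and few had MYC. POL2 was listed for 59, 22 and 45 of them in WT and 61, 53 and 55 in SLK-KO, and for 65 of 73 in at least 1 library. MYC was listed for 2, 1 and 0 in WT and 3, 6 and 2 in SLK-KO, and for 8 in at least 1 library, or 11.0% against 9.69% of coding genes, near the background. These counts are no result about the list, and E2F5 and DBF4 are described because they had MYC in more than 1 library. E2F5, a repressor E2F, had a MYC summit in 2 WT and 3 SLK-KO libraries, at ranks 283 and 131 in WT replicates 1 and 2 and 313, 166 and 831 in SLK-KO. DBF4, the activator of the CDC7 kinase that fires origins, had it in the 3 SLK-KO libraries and no WT library, at ranks 989, 131 and 399 and 125, 97 and 117 bp upstream of a start. That pattern was met by 1 of 73 genes, or 1.37%, against 0.877% of coding genes.

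In the POL2 order, RRM2, TYMS and UBE2C of the wider list ranked farther from the top in every SLK-KO library than in any WT library. RRM2, a subunit of ribonucleotide reductase, ranked 1225, 1245 and 1000 in WT and 2886, 3001 and 1771 in SLK-KO. TYMS, thymidylate synthase, ranked 2498, 2950 and 2512 in WT and 3029, 3438 and 3498 in SLK-KO. UBE2C, an enzyme of the anaphase-promoting complex, ranked 1812, 1721 and 1061 in WT and 3126, 3449 and 2460 in SLK-KO. On the other side stood CDKN2C, TPX2 and ANLN. CDKN2C, the CDK4 and CDK6 inhibitor p18, ranked 1351, 699 and 860 in WT and 377, 353 and 350 in SLK-KO. TPX2, a spindle assembly factor, ranked 3306, 3614 and 3579 in WT and 1797, 1563 and 2756 in SLK-KO. ANLN, a cytokinesis scaffold, ranked 752, 771 and 699 in WT and 418, 425 and 549 in SLK-KO. With 3 of the 21 wider-list genes of the common set in each direction, the share was near the background of 14.9% in each direction, so it is not a result about the list.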

How the data were processed

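ChIP-seq summit lists of 12 of the 20 samples were used, 3 for each antibody and genotype. The remaining samples, 6 IgG and 2 Input, are not analysed here. Per the labels, 50 bp reads were processed with nf-core/chipseq 2.1.0 against GRCh38.p14. The submitters' processing notes name Trim Galore 0.6.7, BWA 0.7.18-r1243, Picard 3.2.0 and MACS3 3.0.1. The control used for peak calling is not given in the sources used here. The deposited score is read as −log10 of the q-value from the authors' peak caller, since the lowest score of every list was just above 1.30103, which is −log10 of 0.05. It was used only to rank summits within a library.

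Each summit was assigned to every gene with a GENCODE 44 transcript start within 1 kb, and the best-scored summit per gene and library was kept. Ranks, ranges and exact permutation p-values were computed with Python 3.11.15, numpy 2.4.6 and pandas 2.3.3, and the test across genes was tested on simulated data. All 43 members are named. Of the wider list, only genes with a MYC summit in at least 2 libraries, or with rank ranges that did not overlap, are named. The members, the lists and the rules were chosen with earlier results of these data known. Motifs were searched in RefSeq promoters and GRCh38. Alternatives were windows of 500 bp and 2 kb, 1 start per gene, a score minimum of 5, equal list lengths, ranks as a percent of the list, the summit nearest to a start, each library left out and a replicate block.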

Additional observations from a re-analysis of the deposited data

How the results depend on the processing

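Of 150 alternative values, 135 were labelled the same, 14 moved and 1 reversed. Counts were the same within 1.5-fold, and mean differences when they moved by no more than their SD. Rank differences of single genes were the same when the ranges still did not overlap in the same direction. With lists of equal length, the SLK-KO minus WT POL2 member difference fell from 12 to 1 and was still labelled the same. So was the G1 minus mitotic MYC difference, which fell from 15.7 to 3.03 points. The SLK-KO minus WT difference in members with a MYC summit, 4 in the full lists, was 3.33 with a 500 bp window, 2 with a score of at least 5 and 0 with lists of equal length. Members with MYC in 3 SLK-KO and 0 WT libraries went from 1 to 0 with a score of at least 5 and to 0 with lists of equal length, and ranged from 1 to 2 with each library left out (2 without SLK-KO replicate 2 or 3). The G1 minus mitotic POL2 difference reversed to 6.57 points with lists of equal length. Members whose POL2 rank ranges did not overlap, 4 of 14 (29.8% of all common genes), were 2 (27.6% of all) when the summit nearest to a start was used and 4 to 10 with each library left out (7 of 14 without WT replicate 1, 10 of 25 without WT replicate 2 and 7 of 14 without SLK-KO replicate 1, beside 40.9%, 40.3% and 37.4% of all common genes, so the rise is shared by all genes). Members with POL2 in all libraries were 14 to 25 with each library left out, 25 without WT replicate 2. WEE1, CDC25B and PCNA kept their direction with other windows, 1 start per gene, a score minimum, equal list lengths and each library left out. CCND3 did so where it could be ranked. Direction was not recorded per gene for the summit nearest to a start. As percents of whole lists, CCND3 ranked 3.78, 24.2 and 12.1 in WT and 10.5, 9.71 and 11.7 in SLK-KO. PCNA ranked 4.23, 18.3 and 9.17 against 10.1, 7.16 and 21.7. The ranges of these genes overlap, while those of WEE1 and CDC25B do not. CCND3 could not be ranked with 1 start per gene.

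The replicate numbers do not pair the libraries, with correlations of 0.00849, 0.00889 and -0.0163 between the POL2 rank deviations of equal numbers. With the replicate block, 6 members had a rank difference of one sign in all 3 pairs, against 45.5% of all common genes, and the POL2 and MYC differences were 12 and 4. Unknown depth limits every statement on a missing summit.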

Other observations

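POL2 summits inside the gene body, over 1 kb from every annotated start of the gene, were listed for few members. MCM7 had 0, 0 and 1 in WT and 4, 2 and 1 in SLK-KO, and CDC25B had none in WT and 1, 2 and 1 in SLK-KO. WEE1 had 1, 0 and 0 in WT and 1, 2 and 1 in SLK-KO, and CDK6 had 1, 0 and 0 in WT and 1, 2 and 2 in SLK-KO. CCND1 differed from these in direction, with 0, 4 and 1 in WT and none in SLK-KO, the 4 being in WT replicate 2, the shortest POL2 list. RFC4 also had more in WT, with 0, 1 and 1 against 0, 1 and 0 in SLK-KO. CDT1 had 1, 0 and 0 in WT and 1, 0 and 1 in SLK-KO. E2F3, ORC1 and CDC20 had 1 summit in a single SLK-KO library and none in WT. The SLK-KO lists are longer, and the counts were not made over all coding genes. No test was made on these counts.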
